A study of Rattus norvegicus with 4 samples.

Results

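Metabotropic glutamate receptors are the G protein-coupled receptors for glutamate, and the 7 genes described here are Grm2, Grm3, Grm4, Grm5, Grm6, Grm7 and Grm8. They were chosen as the rows whose gene symbol equals one of these names, and all 7 were found among 17445 rows that appeared in at least 1 of the 4 libraries. The libraries came from the hippocampus of Wistar rats on postnatal day 1 (PND1). Their dams, 10 weeks old per the labels, received bisphenol A (BPA), a plasticizer with estrogen-like activity, at 5000 µg/kg body weight each day from gestation day 1 until birth, or vehicle alone on the same days. There was 1 library for each sex and treatment (control or BPA), and each was made from 3 pooled hippocampi. The pooling leaves no measure of the spread between pups of one group, so a difference between 2 pools of the same sex has no replicate check. The comparison of both BPA libraries with both control libraries asks how prenatal BPA and vehicle differ in the 2 sexes combined, and the pairs within a sex ask it for males and females separately.

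Glutamate opens ion channels at fast synapses, and the metabotropic receptors adjust those synapses more slowly through G proteins. Group I, here Grm5, sits mostly on the postsynaptic side, couples to Gq and phospholipase C, and releases calcium from internal stores. Group II (Grm2 and Grm3) and group III (Grm4, Grm6, Grm7 and Grm8) couple to Gi/o proteins, lower cyclic AMP and mostly reduce transmitter release from the presynaptic terminal. In the hippocampus the family is known for synaptic depression and other forms of plasticity that underlie learning. Grm5 and Grm3 are also known from glial cells, and Grm6 is best known from the ON bipolar cells of the retina.

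Grm5, Grm6 and Grm7 were the members whose level lay lower in both BPA libraries than in both control libraries. This arrangement was shown by 19.9% of all rows, and Grm7 met it by a narrow margin. The start regions of these genes are shown for that reason. The windows run from 250 bases before to 50 bases after the annotated gene start in RefSeq on assembly GRCr8, which is not the rn6 assembly named in the submitters' processing notes, and read 5′ to 3′ on the strand of the gene. Of the 7 receptors, 4 matched a window. Grm2, Grm3 and Grm4 did not. The Grm5 window lies at chr1:150733503-150733802 on the plus strand, Grm6 at chr10:35668753-35669052 on the plus strand and Grm7 at chr4:145286476-145286775 on the plus strand. Capitals mark an E-box (CAGCTG) in Grm5 and Grm6 and a GC box (GGGCGG, or CCGCCC on the other strand) in Grm7.
Grm5: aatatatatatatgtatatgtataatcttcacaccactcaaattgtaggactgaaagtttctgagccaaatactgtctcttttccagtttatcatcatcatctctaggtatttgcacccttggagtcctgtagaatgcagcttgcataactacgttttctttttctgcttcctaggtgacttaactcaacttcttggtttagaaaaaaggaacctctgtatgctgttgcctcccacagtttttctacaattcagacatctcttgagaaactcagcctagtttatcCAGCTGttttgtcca
Grm6: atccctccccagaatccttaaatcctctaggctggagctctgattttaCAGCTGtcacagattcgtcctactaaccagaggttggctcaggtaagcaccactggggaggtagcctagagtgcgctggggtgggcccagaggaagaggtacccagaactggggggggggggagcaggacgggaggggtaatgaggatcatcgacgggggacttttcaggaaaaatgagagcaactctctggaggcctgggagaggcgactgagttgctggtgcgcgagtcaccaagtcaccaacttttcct
Grm7: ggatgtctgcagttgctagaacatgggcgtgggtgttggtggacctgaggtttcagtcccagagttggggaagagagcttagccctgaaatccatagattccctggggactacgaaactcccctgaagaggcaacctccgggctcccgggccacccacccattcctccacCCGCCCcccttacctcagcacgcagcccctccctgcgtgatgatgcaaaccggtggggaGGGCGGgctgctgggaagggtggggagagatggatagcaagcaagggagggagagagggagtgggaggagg

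The windows differed widely in base composition. Grm5 had 37.3% G+C and 1 CpG, against medians of 51.7% and 7 CpGs over 33469 windows of the same length. Grm6 had 56.7% and 8 CpGs, and Grm7 had 62.0% and 9 CpGs. The Grm8 window, at chr4:57687457-57687756 on the minus strand and not printed here, had 47.3% and 6 CpGs. Of 5 motifs searched on both strands, the E-box was present in 15.1% of all windows and stood at position 286 of 300 in Grm5 and at position 49 in Grm6. The GC box, present in 33.1%, occurred at positions 171 and 230 in Grm7. The estrogen response element half-site (AGGTCA, or TGACCT on the other strand), present in 16.2%, occurred only in the Grm8 window among the 4, at position 68. The cAMP response element half-site TGACG (21.2% of windows) and the TATA box TATAAA (14.2%) occurred in none of the 4. None of these motifs overlaps another in the 4 windows, and a match describes letters in a window and not a bound site.

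Expression was deposited as fragments per kilobase of transcript, scaled to the mapped total (FPKM), a per-length unit that allows levels to be compared between genes. The steps between low FPKM values gave between 8656000 and 8912000 fragments per library, so depth differed little among the 4. All 10 markers of hippocampal excitatory neurons had a row, with a summed level of 498 to 544 FPKM. Markers of neighbouring tissue varied more. The 8 choroid plexus markers summed to 266 FPKM (control) and 707 FPKM (BPA) in male pools and to 9.88 and 45.8 FPKM in female pools. Most of each sum with BPA was the transthyretin gene Ttr. In the female pair Ttr rose from 3.96 to 42.39 FPKM and Otx2 from 0.76 to 1.0 FPKM. All the other choroid plexus markers were lower with BPA in females, such as Folr1 at 2.18 and 1.69 FPKM. The 9 meningeal and vessel wall markers summed to 354 FPKM in female control against 75.9 to 96.5 in the other libraries, and no marker of either list was at the lowest deposited value in all 4 libraries. Whether these marker differences came from the dissected tissue, and whether they took part in the results on the receptors, was not tested. In whole tissue, fewer cells of a type and less RNA per cell cannot be told apart.

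The 7 receptors spanned a wide range of levels and stood in the same order in every library: Grm5, Grm3, Grm7, Grm4, Grm2, Grm6 and Grm8. Mean levels over the 4 libraries, which mix both sexes and treatments, were 31.1 ± 3.35 FPKM (SD, n = 4) for Grm5, 16.5 ± 2.08 for Grm3, 10.0 ± 0.926 for Grm7, 2.83 ± 0.893 for Grm4, 1.95 ± 0.0718 for Grm2, 1.15 ± 0.436 for Grm6 and 0.51 ± 0.204 for Grm8. Among all rows of a library, Grm5 stood at percentiles 78.2 to 82.8 and Grm8 at percentiles 13.1 to 18.3. The ranges of neighbours in the order did not overlap, except those of Grm6 and Grm8. Within single libraries, Grm4 and Grm2 were not distinguishable by counting error in male BPA, female control and female BPA (FPKM ratios 1.28, 1.28 and 1.08, with 95% intervals that held 1), whereas in male control the ratio was 2.19 with an interval of 1.69 to 2.83. Grm2 and Grm6 were not distinguishable in male control (1.18, interval 0.850 to 1.65), nor were Grm6 and Grm8 in female BPA (1.19, interval 0.611 to 2.35).

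**Figure D1:**
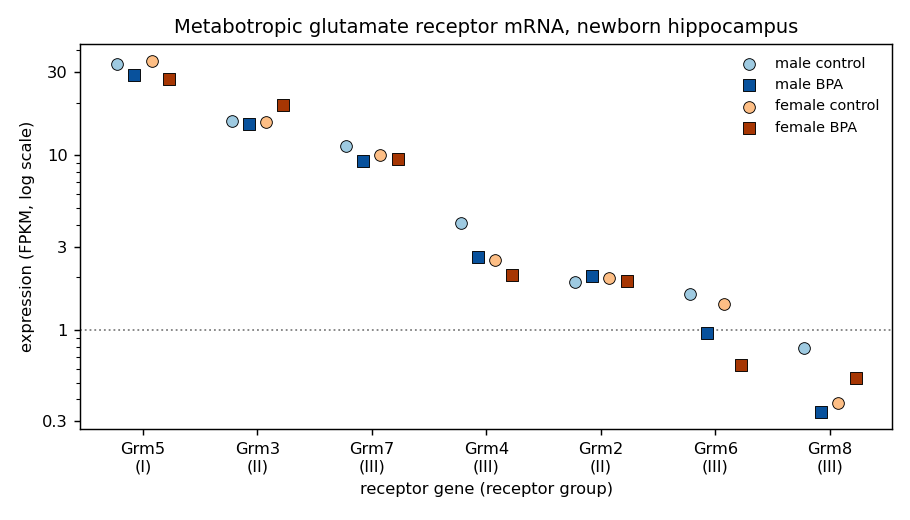
FPKM (log axis) of the 7 receptors in the 4 libraries, 1 point per library, with the receptor group in parentheses and a dotted line at 1 FPKM. Grm5 lies between 27.6 and 34.5 in all 4 libraries, while Grm8 lies between 0.34 and 0.79, below the level of 1 FPKM required for testing.

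The members differed in how much they varied among libraries. Grm2 was the steadiest, with a coefficient of variation of 3.68% over the 4 libraries, below the 9.88% expected from counting its fragments. Grm5 varied by 10.8% against 2.39% from counting, Grm3 by 12.6% against 4.56% and Grm7 by 9.23% against 5.81%. Grm4, Grm6 and Grm8 varied the most, by 31.5%, 38.0% and 40.0%, against 9.51%, 15.1% and 24.6% from counting. Over all rows with a gene ID the median was 10.5% against 5.72%.

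Grm5, the group I receptor among the 7, stood at 33.23 FPKM with vehicle and 28.87 FPKM with BPA in the male pools. The female pools gave 34.54 FPKM with vehicle and 27.59 FPKM with BPA. Both BPA libraries were lower than both control libraries, and the groups did not overlap. On the log2(FPKM + 1) scale used for all fold changes, the change was -0.20 in the male pair and -0.31 in the female pair. The BPA to control ratio of fragments was 0.868 in males (95% Clopper-Pearson interval 0.812 to 0.928) and 0.797 in females (0.745 to 0.853). These intervals cover counting error only. Combined over the sexes, the change was -0.26 ± 0.103 (SE) with an unadjusted p of 0.0443 and an adjusted p of 0.973 by limma with Benjamini-Hochberg adjustment over 13542 rows, so Grm5 did not pass the test. The 9 radial glia and astrocyte markers were also lower in sum, at 1317 and 1184 FPKM in control and BPA males and 1321 and 1213 FPKM in control and BPA females, with 7 of 9 lower with BPA in both sexes and none at the lowest value in all libraries. Their part in the result was not tested.

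In group II, Grm2, a presynaptic autoreceptor, was nearly constant, at 1.88 FPKM in control males, 2.04 in BPA males, 1.98 in control females and 1.91 in BPA females. Male BPA was the highest and male control the lowest, and the groups overlapped. Males changed by 0.08 and females by -0.03 on the log2 scale, and the latter became 0.10 after quantile normalization. The fragment ratio interval was 0.815 to 1.43 in males and 0.725 to 1.28 in females, so changes inside those bounds were not detectable at this depth. The combined log2 fold change was 0.02 ± 0.214 with an adjusted p of 0.996 by limma.

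Grm3, the group II receptor of neurons and glia that also responds to the neuropeptide NAAG, gave 15.67 and 15.10 FPKM in the control and BPA pools of males, and 15.56 and 19.57 FPKM in those of females. The female BPA library was high and the other 3 lay within 0.57 FPKM of each other, so the groups overlapped. In females the log2 fold change was 0.31 and the fragment ratio 1.25 (1.11 to 1.42). In males the change was -0.05, with a ratio of 0.963 (0.843 to 1.10). The combined change was 0.13 ± 0.148 with an adjusted p of 0.973 by limma, and it was -0.045 without the female BPA library. Grm3 had the highest log2 fold change in either sex among the members with a mean of 1 FPKM or more, and 7.76% of all rows in the female pair were as high or higher.

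In group III, Grm4 is a presynaptic receptor that limits transmitter release and was chosen by the study, as a gene changed in these libraries, for measurement by qRT-PCR, so its values here are not independent evidence of its direction. By qRT-PCR the paper reports a significant reduction in females and a slight one with the sexes combined. It does not list Grm4 among the genes changed in males. In the libraries the larger fall was in the male pair, but the 2 pairs were not distinguishable by counting error. The level of Grm4 in males was 4.12 FPKM with vehicle and 2.62 FPKM with BPA. In females it was 2.53 FPKM with vehicle and 2.06 FPKM with BPA. The male control library stood apart at the top, male BPA lay slightly above female control, and the BPA and control groups therefore overlapped. The log2 fold changes were -0.50 (male pair) and -0.21 (female pair), and the female value was -0.06 after quantile normalization. The male library pair held 162 and 103 fragments, a ratio of 0.636 (0.492 to 0.819), and the female pair 97 and 80, a ratio of 0.812 (0.596 to 1.10). In the male pair, 3.88% of all rows had a log2 fold change as low or lower. The combined change was -0.35 ± 0.248 with an adjusted p of 0.973 by limma, and it was -0.08 without the male control library and -0.62 without the female control library. The 9 oligodendrocyte lineage markers also had their highest sum in male control and their lowest in female BPA. The sums were 145 and 113 FPKM for control and BPA males and 120 and 103 FPKM for control and BPA females. Of the 8 tested, 4 were lower in both sexes (2 after quantile normalization), against 31.6% of all rows. Sox10 was higher in both, and none was at the lowest value in all libraries. Olig1 was the highest of the list, at 76.91 FPKM in male control. The marker sums of interneurons, of thalamus or hypothalamus and of striatum were likewise highest in male control and lowest in female BPA. The part of any of these markers in the result was not tested.

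Grm7, the group III receptor of the presynaptic active zone and the most abundant of its group here, gave 11.32 and 10.08 FPKM in the control libraries of males and females, and 9.24 and 9.50 FPKM in their BPA libraries. Both BPA values were below both control values, by a narrow margin of 9.50 against 10.08. The male pair changed by -0.27 and the female pair by -0.08 on the log2 scale, and the female value was -0.0090 after quantile normalization. The fragment ratio was 0.816 in males (0.693 to 0.959) and 0.940 in females (0.795 to 1.11), and the combined change was -0.17 ± 0.132 with an adjusted p of 0.973 by limma. Without the male control library the combined change was -0.10.

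Grm6, whose protein drives the light response of ON bipolar cells, reached 1.60 (male) and 1.40 FPKM (female) with vehicle, and 0.96 (male) and 0.63 FPKM (female) with BPA. Both BPA libraries lay below both controls, and the groups did not overlap. The values rest on 62 and 53 fragments in controls and 37 and 24 with BPA. The log2 fold changes were -0.41 for males and -0.56 for females, with fragment ratios of 0.597 (0.386 to 0.911) and 0.446 (0.263 to 0.735). The combined change was -0.48 ± 0.265, with an unadjusted p of 0.113 and an adjusted p of 0.973 by limma, and it was -0.86 with a pseudocount of 0.1. Of its partners known mainly from the retina, Nyx was at 0.41 FPKM in both male libraries and 0.12 in both female ones, and Trpm1, the channel that Grm6 controls in the retina, was at 0.02 and 0.05 in female control and female BPA with no row in males. Rgs11 was at 0.22 to 0.70 FPKM, and Gpr179 and Lrit3 had no row. Partners that other neurons share were far higher, with Gnao1 at 195 to 218 FPKM, Gnb5 at 36.7 to 44.6 and Rgs7 at 23.8 to 26.1.

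Grm8, a presynaptic receptor with high affinity for glutamate, was the least abundant, with 0.79 FPKM in control males, 0.34 in BPA males, 0.38 in control females and 0.53 in BPA females. The groups overlapped, with male control at the top and male BPA at the bottom. These values rest on 26, 11, 12 and 17 fragments, and Grm8 was left out of the tests because its mean was below 1 FPKM. On the log2 scale males changed by -0.42 and females by 0.15. The fragment ratio was 0.423 (0.189 to 0.886) in males and 1.39 (0.627 to 3.20) in females, and both intervals are wide.

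**Figure D2:**
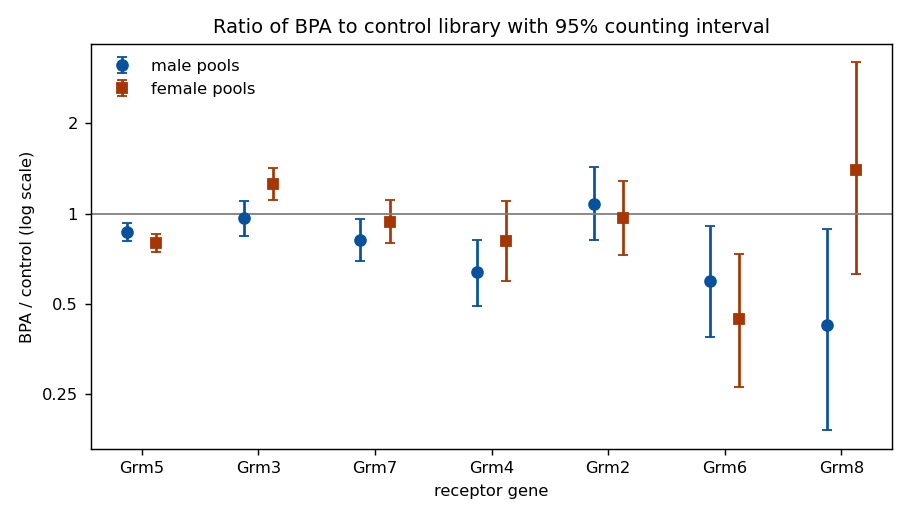
Ratio of the BPA to the control library of the same sex (log axis) for each receptor, from recovered fragments, with 95% Clopper-Pearson intervals that cover counting error only and not the spread between pups. Grm5 and Grm6 have intervals below 1 in both sexes, Grm4, Grm7 and Grm8 in males alone, and Grm3 lies above 1 in females at 1.25.

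Across the 6 members tested, none was called by limma in the combined comparison, where the background was also 0% of 13542 rows. At an unadjusted p under 0.05, 637 rows (4.7%) passed, and Grm5 was the member among them. In the pairs, a change was called past an absolute log2 fold change of 1, which 1.7% of rows passed in males and 2.32% in females, and no member did so in either sex. With a pseudocount of 0.1 in place of 1, Grm6 in females (-1.04) and Grm8 in males (-1.02) were past that threshold. The rows past it then rose from 230 to 482 in males and from 314 to 589 in females. Of all 7 members, Grm8 included, 6 were lower with BPA in males, where 50.3% of all rows were lower, and 5 in females, where 56.6% were. After quantile normalization the female count was 4. Among the 6 tested, Grm4, Grm5, Grm6 and Grm7 were lower in both sexes, against 31.6% of all rows. Both BPA libraries lay below both controls for 3 members, Grm5, Grm6 and Grm7, against 19.9% of rows, and both lay above for none, against 13.8%. With 1 library left out at a time, the count of members below was 3 or 4, and the background rose to between 33.3% and 39.7%. The median log2 fold change of the members was -0.27 in males and -0.08 in females, beside -0.0017 and -0.038 over all rows. After quantile normalization the member medians were -0.27 in males and -0.0090 in females, beside 0.0040 and 0.0011 over all rows.

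**Figure D3:**
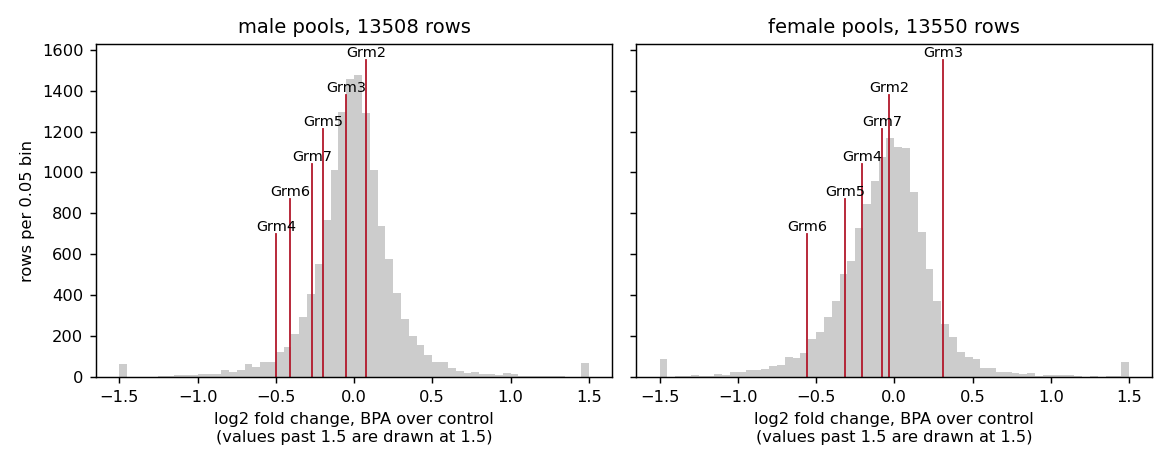
Histograms of the log2 fold change (BPA over control, log2(FPKM + 1) scale) of all rows with a mean of at least 1 FPKM in the male pair (13508 rows) and the female pair (13550 rows), with red lines at the values of the 6 members at that level and line heights that serve only to separate the names. Grm4 at -0.50 in males and Grm6 at -0.56 in females lie in the lower tail, and Grm2 lies near 0 in both.

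The change with BPA was of opposite sign in the 2 sexes for Grm2, Grm3 and Grm8. For Grm3 the female change exceeded the male one by 0.36 on the log2(FPKM + 1) scale. From fragments the difference was 0.38 on the log2 scale, with a counting interval of 0.12 to 0.64. For Grm4 the same difference was 0.36, with an interval of -0.20 to 0.91, so the male and female changes were not distinguishable by counting error. With 1 pool per sex and treatment, the difference between the sexes could not be tested.

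The 2 female libraries were also compared with the 2 male ones. Grm4 was the member with both female libraries below both male libraries, at 2.53 and 2.06 against 4.12 and 2.62 FPKM, an arrangement that 22.5% of all rows showed. The margin between male BPA and female control was 0.09 FPKM. The log2 difference, female minus male, was -0.39 ± 0.243 with an adjusted p of 0.609 by limma. It was -0.14 without the male control library and -0.64 without the male BPA library. Among controls alone, the female to male FPKM ratio of Grm4 was 0.614 (counting interval 0.474 to 0.797), and with BPA it was 0.786 (0.580 to 1.06). No member passed the combined test at an adjusted or unadjusted p under 0.05, against 0.00738% and 10.6% of rows. The single row called was LOC100911498, named after its value was seen. The remaining 5 tested members had adjusted p-values between 0.686 and 0.994 by limma. Grm3 with BPA was 1.30 times as high in the female library (counting interval 1.15 to 1.47), while in controls the ratio was 0.993 (0.874 to 1.14).

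Summed over the 7 members, receptor mRNA amounted to 68.61 FPKM in control males, 59.17 in BPA males, 66.47 in control females and 61.79 in BPA females. The sum was lower in both BPA libraries than in both controls. Grm5 made up 48.4%, 48.8%, 52.0% and 44.7% of it in that order. Group II contributed 25.6%, 29.0%, 26.4% and 34.8%, and the highest of these shares, in female BPA, came with the high Grm3 value. Group III contributed 26.0%, 22.2%, 21.6% and 20.6%, and its highest share, in male control, came with the high Grm4 and Grm7 values. Shares add up to a fixed total, so they do not move independently.

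**Figure D4:**
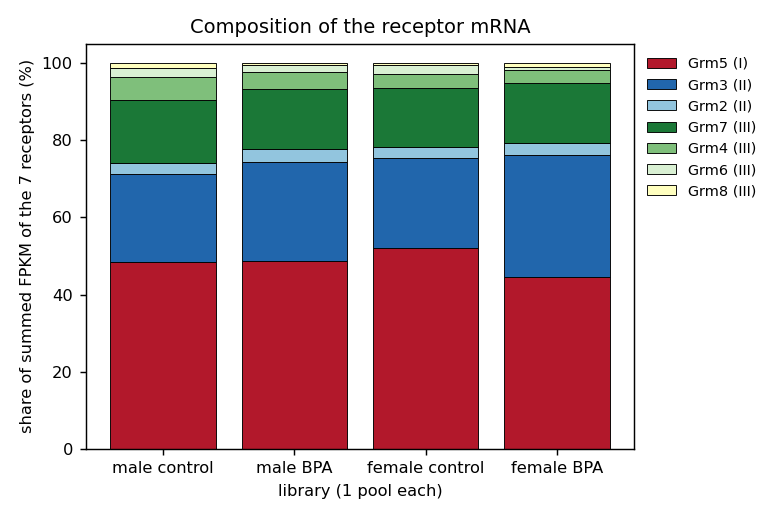
Stacked share (%) of each receptor in the summed FPKM of the 7 receptors, 1 bar per library, with the receptor group in parentheses. Grm5 takes 44.7% to 52.0% of every bar, and Grm3 takes 31.7% in female BPA against 22.8% to 25.5% in the other 3.

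The rows with a profile over the 4 libraries most like that of Grm4 were Tjp3, Dok7 and Ugt1a6, by the root mean square difference of log2(FPKM + 1) values after subtraction of each row's mean, among 10856 rows. The differences were 0.0353, 0.0464 and 0.0497, beside a root mean square of 0.273 for the Grm4 profile itself. Tjp3, for example, had 2.56 and 1.51 FPKM in the male pools (control, BPA) and 1.31 and 1.10 FPKM in the female pools. Like Grm4, each of the 3 was highest in male control and lowest in female BPA, a likeness that follows largely from their selection by profile. With 4 libraries, close profiles are frequent and carry no test.

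The signalling partners of the receptors were followed with 96 genes in 7 lists. Of these, 89 had a row and 82 reached 1 FPKM. By limma 0 of the 82 passed at an adjusted p under 0.05, and at an unadjusted p 6 passed, all lower with BPA. Before adjustment, 4.7% of all rows passed. Of the 82, 40 were lower in both sexes, against 31.6% of all rows, and 14 were higher in both. The same 31.6% is the background for the counts lower in both sexes in each list below. Median log2 fold changes of the 82 were -0.04 in males and -0.10 in females, beside -0.0017 and -0.038 over all rows. The 6 were the G protein subunits Gnb4 and Gng7, the protein kinase Prkca, the glutamate transporters Slc1a2 and Slc1a3, and glutamine synthetase Glul, all with an adjusted p of 0.973, and those not fixed by rule were named after their values were seen.

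Downstream of group I receptors, 11 of 12 tested Gq effectors were lower in both sexes (10 of 12 after quantile normalization), against 31.6% of all rows. Their medians were -0.07 in males and -0.17 in females, and -0.07 and -0.09 after quantile normalization. Of the 12, 1 (Prkca) passed at an unadjusted p. The exception was the kinase gene Prkce, the most abundant of the list, at 76.35 and 77.14 FPKM in the male pools (control, BPA) and 68.56 and 73.05 FPKM in the female pools. The calcium release channel gene Itpr2 had the most negative change shared by both sexes, at 2.30 against 1.74 FPKM for male control and BPA pools and 2.69 against 2.18 for the female ones, with an adjusted p of 0.973 by limma.

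Downstream of groups II and III, 7 of 12 tested Gi/o effectors were lower in both sexes and 1 was higher in both. That one was the potassium channel gene Kcnj3, a target of G protein beta and gamma subunits, with log2 fold changes of 0.41 and 0.11. The calcium channel gene Cacna1a, a presynaptic channel that group III receptors can inhibit, had -0.37 and -0.25. Among the G protein subunits themselves 4 of 15 were lower in both sexes and 6 higher (7 and 6 after quantile normalization), and Gng7 had -0.37 and -0.36. All 3 remained at an adjusted p of 0.973 by limma.

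Of the scaffolds and synaptic partners, 6 of 13 tested were lower in both sexes and 1 was higher. The latter was Homer1, the scaffold that ties group I receptors to calcium stores, with log2 fold changes of 0.18 and 0.07. The postsynaptic scaffold gene Shank3 had -0.20 and -0.18. Of the genes that end or modulate receptor signals, 6 of 13 were lower in both sexes and 3 higher (4 and 3 after quantile normalization). Rgs4 had 0.22 and 0.17 and the receptor kinase gene Grk5 -0.28 and -0.23. None passed the adjusted test.

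Among genes for supply and removal of glutamate and NAAG, 5 of 9 tested were lower in both sexes and 1 was higher. The astrocytic transporter gene Slc1a2, which clears glutamate and so limits the reach of the transmitter to these receptors, had 52.85 and 44.53 FPKM in the control libraries (male, then female) and 38.83 and 34.55 FPKM in the BPA libraries. Its groups did not overlap, and its combined log2 fold change was -0.40 with an unadjusted p of 0.0172 and an adjusted p of 0.973 by limma. Slc1a3 and Slc1a2 are astrocytic genes, and Slc1a3 is also one of the 9 radial glia and astrocyte markers whose summed level was lower with BPA in both sexes. Of the genes for receptor-dependent depression and translation, 1 of 8 was lower and 1 higher in both sexes, with Fmr1 at -0.08 and -0.05.

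**Figure D5:**
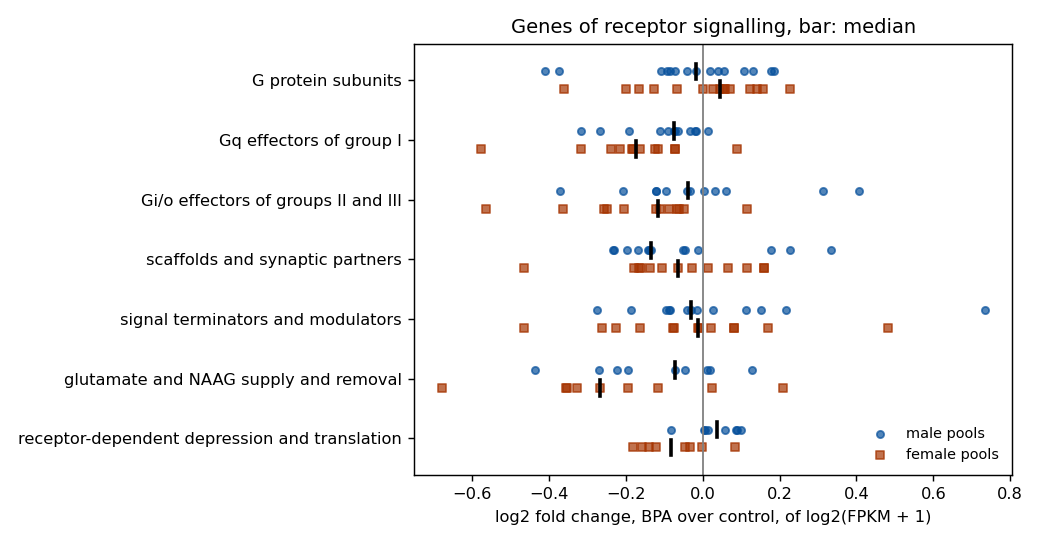
Log2 fold change (BPA over control, log2(FPKM + 1) scale) of the 82 tested genes of receptor signalling in 7 lists, with a circle for the male pair, a square for the female pair and a black bar at the median of each list. The Gq effectors lie almost wholly left of 0, with medians of -0.07 in males and -0.17 in females, while the G protein subunits lie on both sides.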

How the data were processed

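RNA-seq was made from 4 libraries, 1 per sex and treatment, each of 3 pooled hippocampi. The authors deposited FPKM values per gene, and the submitters' processing notes name HISAT 0.1.6, Bowtie2 2.2.5, RSEM and the rn6 assembly. The FPKM values as deposited were joined by gene ID (16375 rows in all 4 libraries). Fragments per library were recovered from the steps between low values of rows 300 to 1500 bases long, of which 94.4% to 98.5% lay within 0.15 of a whole fragment. The method was tested on simulated data. FPKM was transformed as log2(FPKM + 1). Rows with a mean of at least 1 FPKM were tested with limma 3.58.1 in R 4.3.3, 2 against 2 libraries without covariates, with Benjamini-Hochberg adjustment. The smallest two-sided exact permutation p for 2 against 2 is 0.333. Male and female pairs were compared without a test, with a threshold of 1 on the absolute log2 fold change. Intervals for ratios are 95% Clopper-Pearson and cover counting error only, since they rest on fragments of single pools. Fragments without molecular identifiers are not independent molecules, so the intervals may be too narrow even for counting error. Figures and other values were made with Python 3.11.15, scipy 1.17.1 and matplotlib 3.10.9. P-values measure the spread between pools, and in the comparison by treatment the 2 sexes serve as replicates.

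Members and gene lists were chosen with earlier results of these data known. Named were the 7 members, in each signalling list the gene of highest mean and those with the largest change shared by both sexes in either direction, any past 1 in either sex, and the 3 rows closest to Grm4 in profile. A further gene named by the rule is not reported here. Columns of the authors' own comparisons (fold changes and p-values) were not used. Alternatives were another pseudocount (0.1), another filter (a mean of 5 FPKM, or none), quantile normalization, sums per gene, sex or treatment as a covariate and leaving out each library. No gene model without an ID was matched to a receptor.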

Additional observations from a re-analysis of the deposited data

Results flagged for a closer look

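The log2 fold changes of Grm2, Grm3 and Grm8 had opposite signs in the male and the female pair, and in each case the difference between the sexes was not tested because each sex had 1 pool per treatment. For Grm3 the female minus male difference of the log2 fold changes was 0.36, with BPA minus control differences of -0.57 FPKM in males and 4.01 FPKM in females. For Grm8 the difference was 0.57, from values of 0.34 to 0.79 FPKM that rest on 11 to 26 fragments per library. The counting interval of the Grm8 difference on the log2 scale of fragments was 0.22 to 3.17. For Grm2 the difference was -0.11, and the counting interval of the difference from fragments, -0.73 to 0.39, held 0.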

How the results depend on the processing

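The combined comparison of BPA with control called 0 of 13542 rows, 637 at an unadjusted p under 0.05, 2 with sex as a covariate (LOC689064 and a gene model without a name) and 0 to 3 when each library was left out in turn. No receptor had an adjusted p under 0.05 under any of these settings. Grm5 was among the 637, and with sex as a covariate its unadjusted p was 0.0180 and its adjusted p 0.478 by limma. Its unadjusted p by limma was 0.0464 after quantile normalization and 0.0472 with sums per gene. With 1 library left out at a time its log2 fold change ran from -0.29 to -0.22. The comparison of the sexes called 1 row, 1442 at an unadjusted p under 0.05, 21 with a mean of at least 5 FPKM, 30 with sums per gene, 55 with treatment as a covariate and 1 to 2 when each library was left out. Rows past a log2 fold change of 1 numbered 230 in males (26 at a mean of at least 5 FPKM, 482 with a pseudocount of 0.1, 53 with sums per gene) and 314 in females (62, 589 and 105 under the same settings). The cause of these differences was not tested.

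Some small log2 fold changes of members changed sign, and Grm3 and Grm4 moved in size. With 1 library left out at a time, the change with BPA ran from -0.0097 (without male BPA) to 0.053 for Grm2 and from -0.045 (without female BPA) to 0.31 for Grm3. The difference between the sexes, female minus male, ran from -0.046 to 0.032 for Grm2, 0.016 to 0.33 for Grm3 and -0.64 to -0.14 for Grm4. It ran from -0.16 to 0.15 for Grm5, -0.47 to 0.088 for Grm6 and -0.19 to 0.075 for Grm7. After quantile normalization it was 0.0043 for Grm2 and 0.016 for Grm5. Depth limits Grm8 and Grm6 most, with 11 to 62 fragments per library.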
